A study of Mus musculus with 283 samples.

Results

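Nonclassical, or class Ib, MHC class I genes encode relatives of the classical antigen-presenting molecules H2-K and H2-D. The genes described here were H2-T23, H2-M3, H2-Q4, H2-Q6, H2-Q7, H2-Q10, H2-T10 and H2-T22, taken by symbol as 8 of the 45724 gene entries measured in mouse mammary tumours and normal mammary glands. Each of the 8 was found and passed the filter on low values. Their proteins mostly pair with beta-2 microglobulin, as classical molecules do, but they vary less between individuals and are read by natural killer cells, gamma delta T cells and other innate-like lymphocytes. Interferon gamma and the transactivator NLRC5 are known inducers of class I genes, so the RNA of these genes in a tumour is commonly read beside interferon and lymphocyte genes. The MHC haplotype differs between inbred strains. BALB/c mice carry H-2d, FVB mice carry H-2q, and the C57BL/6J reference genome carries H-2b.

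The tumours came from transplanted or primary mouse mammary tumour models, and the comparisons below use 263 samples from 264 RNA-seq libraries, since 2 libraries of 1 untreated KPB25L mouse were averaged. Therapy means antibodies against PD1 and CTLA4, given intraperitoneally, and the reference is untreated tumours of the same model. Tumours were taken at 3 days, 7 days or end stage. Models that the labels class as sensitive and that had a therapy arm were T11-UV, T11-Apobec, KPB25L and KPB25L-UV, beside KPB25L-Apobec with untreated tumours only. Resistant models with a therapy arm were T11, p53-2225L and p53-2336R. At 7 days there were 18 samples with therapy and 15 untreated in the sensitive models, and 4 and 4 in T11, the resistant model sampled at that time. The labels of matching exome libraries give the strain BALB/c to T11, its derivatives and the 5 p53 models with tumours taken at 3 days, and FVB to KPB25L and its derivatives. The remaining models, all with untreated tumours only, were C3-TAG, PyMT, ILC-Pik3Ca/Cdh1Null, KPB-Primary, KPB-1A, KPB-1B, T12 and p53 models with 1 end-stage tumour each. Neither the strain of these remaining models nor the alleles of each model is given in the sources used here. Each line is 1 tumour line grown in several mice, so differences between lines rest on 1 line each. Normal glands came from 5 BALB/c and 4 FVB libraries, some of which the labels mark as pooled. The column names of the table call the untreated 3-day tumours pretreatment, whereas the labels give 3 days, and the labels were followed.

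Values are the authors' upper-quartile normalized signal per gene, shown as log2(signal + 1), on which a difference of 1 is a factor of 2. Libraries had 16390 to 25883 genes above 0, and read depth was not given in the deposited values. Calls were made with limma at a Benjamini-Hochberg adjusted p under 0.05 over all genes tested, 20848 in tumours and 20754 in glands. Of 27 samples of KPB25L-UV, 6 had high levels of transcripts that mark T11 against KPB25L, called T11 transcripts below. The 50 marker genes were those that best set untreated 3-day T11 tumours above KPB25L tumours. Their mean log2(signal + 1) was 6.22 to 8.35 in these 6, 1.62 to 3.28 in the other 21 and 6.85 to 9.29 in T11 and its derivatives. Whether T11 cells were present in the 6 was not tested. Counts of members called that use KPB25L-UV were therefore also made without the 6. These were again 0 for the sensitive models at end stage, for their effect at 7 minus 3 days and for their effect minus that of T11, 7 for end stage against 3 days and 6 for BALB/c against FVB models, and the others stand beside their results. The summed level of 4 epithelial markers (Epcam and 3 keratins) was 6.6 to 9.01 in untreated T11 at 7 days and 16.35 to 16.99 in untreated KPB25L, so epithelial RNA was low in the T11 tumours. Among leucocyte markers, 9 of 11 rose with therapy at 7 days in the sensitive models, where 15.5% of all genes were called higher. In bulk tumours fewer cells of a type and less RNA per cell cannot be told apart.

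All 8 genes lie on chromosome 17 (GRCm38, GENCODE annotation). H2-Q4, H2-Q6, H2-Q7 and H2-Q10 of the Q region span chr17:35379617-35385290, chr17:35424850-35430055, chr17:35439155-35443773 and chr17:35470089-35474563 on the plus strand. H2-Q6 and H2-Q7 encode Qa-2 antigens, H2-Q4 encodes Qb-1, and H2-Q10 encodes a soluble molecule made mainly by the liver. H2-T23, H2-T22 and H2-T10 of the T region span chr17:36029773-36032855, chr17:36037128-36042747 and chr17:36115876-36121465 on the minus strand. H2-T23 encodes Qa-1, which shows leader peptides of other class I molecules to the NKG2A receptor, and H2-T10 and H2-T22 are ligands of a subset of gamma delta T cells. H2-M3, at chr17:37270220-37274484 on the plus strand, presents N-formylated peptides such as those of bacteria and mitochondria. The annotation classes H2-T10 as a polymorphic pseudogene of the reference strain and the other 7 as protein coding.

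The pairs H2-T10 with H2-T22 and H2-Q6 with H2-Q7 are the closest in sequence, which bears on how reads of 50 bases could be split between them. The annotated coding sequences of H2-T10 and H2-T22 were 97.3% identical, with 28 differing bases, and 38.3% of the 50-base stretches of H2-T10 transcripts also occurred in H2-T22. Those of H2-Q6 and H2-Q7 were 95.4% identical, with 45 differing bases. The share of 50-base stretches found in no other gene was 99.4% in H2-M3, 92.3% in H2-Q10, 70.2% in H2-T23, 65.1% in H2-Q7, 65% in H2-Q6, 60.8% in H2-Q4, 59.3% in H2-T10 and 56.1% in H2-T22. H2-Q4 shared most with the predicted gene Gm11131, at 16.1%. Values of H2-T10, H2-T22, H2-Q4, H2-Q6 and H2-Q7 are therefore uncertain as levels of single genes, and to a lesser degree that of H2-T23. The coding windows of 60 bases in which each pair differs most are shown for that reason, from GRCm38, with differing bases in capitals. The H2-T10 window is chr17:36119324-36119383 and the H2-T22 window chr17:36040613-36040672, both on the minus strand, and they differ at 7 bases.
H2-T10: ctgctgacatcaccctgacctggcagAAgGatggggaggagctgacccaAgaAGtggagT
H2-T22: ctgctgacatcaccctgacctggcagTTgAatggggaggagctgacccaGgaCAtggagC
The H2-Q6 window is chr17:35425119-35425178 and the H2-Q7 window chr17:35439463-35439522, both on the plus strand, and they differ at 10 bases.
H2-Q6: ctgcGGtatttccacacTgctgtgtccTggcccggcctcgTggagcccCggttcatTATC
H2-Q7: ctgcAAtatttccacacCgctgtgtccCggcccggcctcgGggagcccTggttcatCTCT

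Promoters are shown because the members moved together in several comparisons below. RefSeq promoter sequences (GRCm38.p6) were matched for 7 of the 8 genes, all but H2-T10, and the 200 bases before the start were searched on both strands. The core of the interferon-stimulated response element, GAAA and again GAAA with 2 bases of any kind between, occurred in H2-T23 at bases -124 to -115 and in H2-T22 at bases -191 to -182, that is in 2 of 7 members against 2.27% of 32851 promoters. It is in capitals in the promoters of H2-T23 (chr17:36032702-36032901) and H2-T22 (chr17:36042743-36042942), both on the minus strand, where it reads in the opposite orientation.
H2-T23: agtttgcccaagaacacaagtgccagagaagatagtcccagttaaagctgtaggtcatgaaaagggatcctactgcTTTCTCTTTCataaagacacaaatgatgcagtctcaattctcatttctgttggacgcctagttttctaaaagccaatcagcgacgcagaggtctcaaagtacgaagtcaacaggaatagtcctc
H2-T22: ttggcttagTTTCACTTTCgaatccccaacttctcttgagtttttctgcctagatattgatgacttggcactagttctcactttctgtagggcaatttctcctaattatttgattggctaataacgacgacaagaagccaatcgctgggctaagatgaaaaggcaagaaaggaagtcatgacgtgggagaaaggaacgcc
The other 5 promoters lacked these exact letters, which does not show that they lack such an element. They shared a run of 11 bases, GTTTCACTTCT, which was found by comparing them and was therefore chosen after they were seen. It occurred in 13 of 32851 promoters, or 0.0396%, among them those of the classical genes H2-K1 and H2-D1. The run is in capitals in windows of 61 bases on the plus strand at chr17:35379438-35379498 for H2-Q4, chr17:35424672-35424732 for H2-Q6, chr17:35439016-35439076 for H2-Q7, chr17:35469908-35469968 for H2-Q10 and chr17:37270107-37270167 for H2-M3.
H2-Q4: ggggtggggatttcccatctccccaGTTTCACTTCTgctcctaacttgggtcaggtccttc
H2-Q6: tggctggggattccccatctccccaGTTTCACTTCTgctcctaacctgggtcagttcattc
H2-Q7: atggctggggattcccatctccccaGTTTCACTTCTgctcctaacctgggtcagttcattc
H2-Q10: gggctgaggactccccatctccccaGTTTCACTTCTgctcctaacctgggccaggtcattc
H2-M3: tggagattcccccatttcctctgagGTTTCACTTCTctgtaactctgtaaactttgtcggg
The palindrome TTCNNNGAA of the gamma-activated site occurred in 0 of the 7 members and in 5.49% of all promoters. The letters CCAAT occurred in 6 of 7 members against 29.3% of promoters, and TGACG in 4 of 7 against 15.7%. Such matches describe the reference sequence and do not show binding.

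In the sensitive models at 7 days, each of the 8 genes was higher with therapy than in untreated tumours. Differences ranged from 0.67 to 1.5, with a median of 1.01, against a median of -0.07 over all genes. Of all genes tested, 36.7% were called in either direction and 15.5% were called higher. H2-Q7, a Qa-2 gene, averaged 12.99 with therapy and 11.5 untreated with each model weighted equally, a difference of 1.5 ± 0.31 (SE, adjusted p = 6.00e-05, limma). H2-T23 averaged 13.47 with therapy and 12.12 untreated, a difference of 1.35 ± 0.22 (adjusted p = 6.76e-07, limma). H2-Q6 differed by 1.31, H2-T10 by 1.21 and H2-M3 by 0.81, with adjusted p-values of 0.00044, 7.55e-06 and 8.00e-06 (limma). The smallest differences were those of H2-Q4 (0.73), H2-Q10 (0.7) and H2-T22 (0.67), with adjusted p-values of 0.0143, 0.0239 and 0.0227 (limma). With the sequencing flow cell as a term, 5 of the 8 were called and those same genes, H2-Q4, H2-Q10 and H2-T22, were not, at adjusted p-values of 0.114, 0.15 and 0.255 (limma). Without the 6 KPB25L-UV samples with T11 transcripts all 8 were called, and the difference of H2-T22 was 1.02 in place of 0.67. The number of all genes called in this and other alternative fits is given only for T11-UV with flow cell as a term.

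By model, the 7-day differences had medians of 1.38 in T11-UV, 1.26 in T11-Apobec, 0.58 in KPB25L, 0.54 in KPB25L-UV and 0.13 in T11. The KPB25L-UV median includes samples with T11 transcripts in both arms and is not given without them, so its place among the models is uncertain. H2-T23 read 15.59, 14.8, 15.57 and 14.58 with therapy in T11-UV, against 14.37, 12.38, 13.14 and 12.24 in untreated T11-UV. In T11-Apobec it read 15.92, 14.51, 15.21 and 15.25 with therapy, against 13.24, 12.98, 12.81 and 12.91 untreated. Each treated tumour of both derivatives lay above each untreated one of its model, by 2.1 ± 0.44 in T11-UV and 2.24 ± 0.44 in T11-Apobec on average (SE, 4 against 4 mice, adjusted p = 0.000585 and 5.94e-05, limma). In KPB25L the values of H2-T23 were 11.41, 10.72, 10.66 and 11.19 with therapy, against 9.91, 11 and 10.57 untreated, and the arms overlapped. In T11, the resistant parent, they were 10.68, 10.43, 10.79 and 11.18 with therapy, against 10.69, 11, 10.82 and 10.68 untreated, within the same narrow range.

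Over the 8 genes, T11-Apobec had 5 called higher with therapy (13.7% of all genes were, and 29.4% were called in all), namely H2-T23, H2-M3, H2-Q7, H2-T10 and H2-T22, and its arms did not overlap for any of the 8. Without its treated replicate 1, 2 were called. T11-UV had 3 called higher (4.31% of all genes were, and 7.46% were called in all), namely H2-T23, H2-M3 and H2-T10, and 6 without overlap. How many of all genes lacked overlap was not counted in either model. The treated and untreated T11-UV tumours of this time were sequenced on different flow cells, so flow cell could be fitted only through other groups. With flow cell as a term 0 of its members and 8 of all genes were called (limma). A therapy effect apart from flow cell is thus not shown in T11-UV at 7 days. In T11-Apobec, KPB25L, KPB25L-UV and T11 both arms shared 1 flow cell at 7 days. KPB25L had 0 members called (0% of all genes called, 1199 genes at unadjusted p under 0.05, limma), with differences of 0.22 to 1.25.

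KPB25L-UV had 1 of 8 called at 7 days with all samples, H2-T10 (8% of all genes were higher and 19.4% called in all), and 5 without the samples with T11 transcripts. The count was 0 without treated replicate 2, 3 without treated replicate 3 and 2 without untreated replicate 3. H2-T10 read 12.36, 13.55, 12.18, 12.82, 12.32 and 12.41 with therapy, against 11.1, 11.1, 11.63 and 11.41 untreated, without overlap. H2-T22 read 11.99, 10.75, 9.27, 10.24, 12.28 and 9.94 with therapy, against 8.81, 8.8, 13.22 and 12.79 untreated. The highest values of H2-T22 in each arm, 11.99 and 12.28 with therapy and 13.22 and 12.79 untreated, were those of the samples with T11 transcripts. A difference in H2-T22 between KPB25L-UV arms is therefore not read from the pooled value of -0.16.

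**Figure D1:**
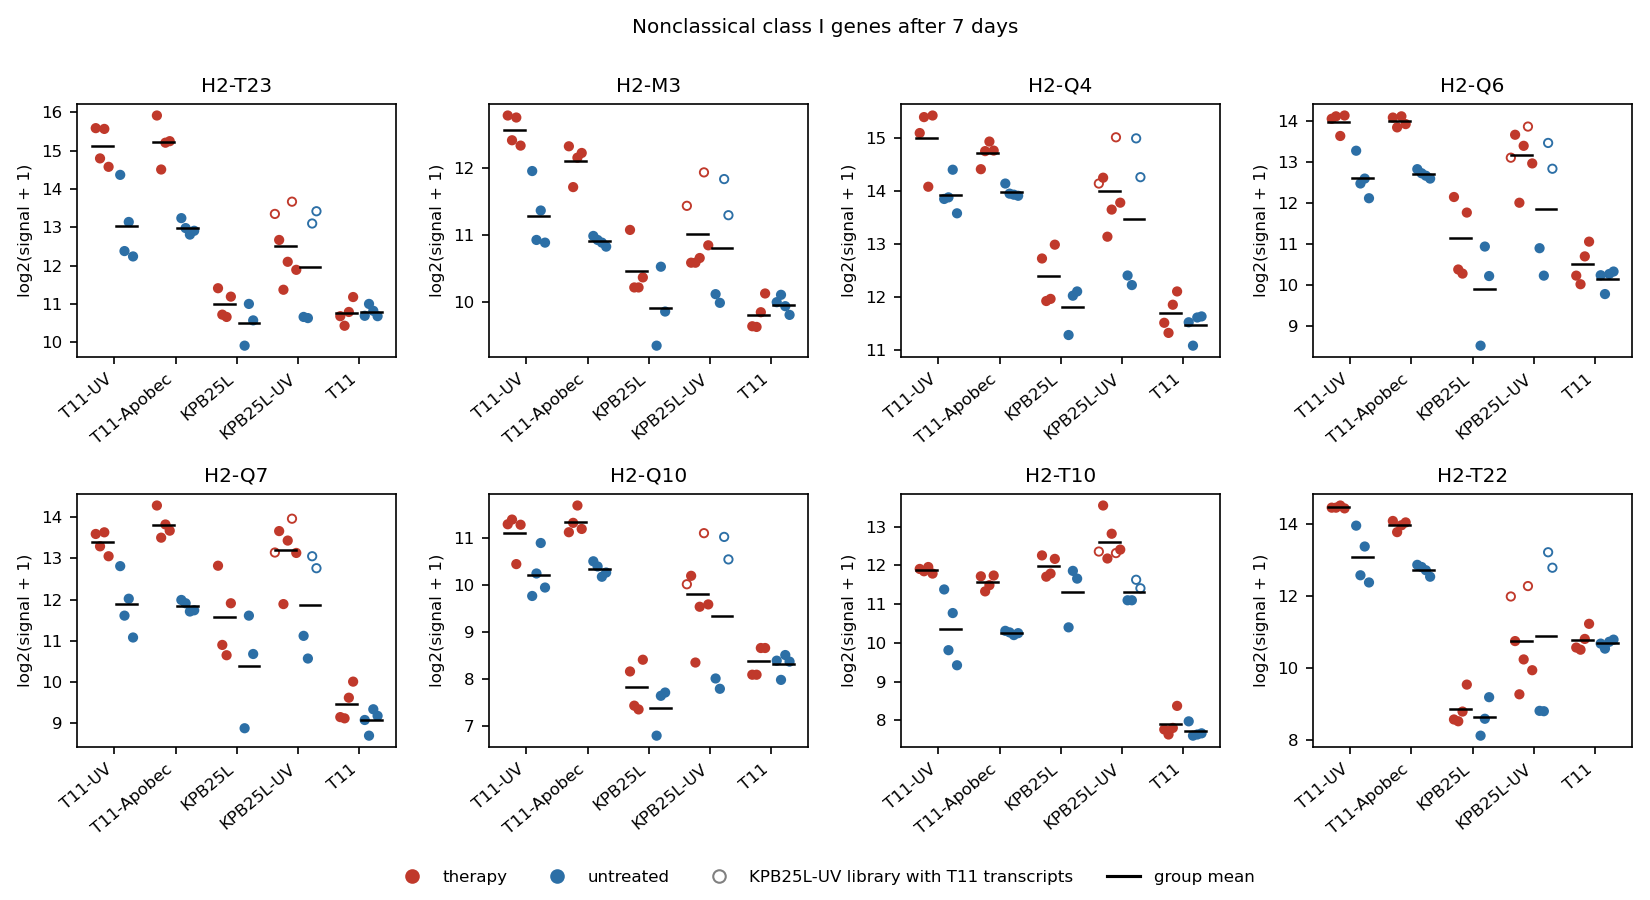
Signal of each nonclassical class I gene as log2(signal + 1) in every 7-day tumour, by model, with therapy on the left and untreated on the right of each pair; horizontal bars are means and open points are KPB25L-UV samples with T11 transcripts. Treated and untreated T11-Apobec tumours do not overlap for any of the 8 genes, while T11 points of both arms lie together (H2-T23 from 10.43 to 11.18 with therapy and 10.68 to 11 untreated). Overlap was not counted for other genes.

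In T11 at 7 days, 0 of the 8 genes and 0% of all genes were called (61 at unadjusted p under 0.05, limma), and member differences ran from -0.15 to 0.4. The test of the therapy effect in the sensitive models minus that in T11 also called 0 members, with 0.0048% of all genes called and 1892 at unadjusted p under 0.05 (limma). The difference of effects was 0.5 to 1.37 over the 8 genes, and for H2-T23 it was 1.37 ± 0.5 (SE, adjusted p = 0.343, limma). A therapy effect confined to the sensitive models is thus not shown for any of the 8.

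Fewer members were called at the other times. At 3 days 3 of 8 were called higher in the sensitive models (6.93% of all genes were, and 6.92% lower), namely H2-T23 by 0.98 ± 0.23, H2-M3 by 0.63 ± 0.15 and H2-T10 by 0.73 ± 0.23 (SE, adjusted p = 0.00508, 0.00658 and 0.0236, limma). With flow cell as a term 0 were called, and without the samples with T11 transcripts 5 were. The count was 6 without treated KPB25L replicate 1 and 5 without treated T11-UV replicate 2. KPB25L alone had all 8 called at 3 days (8.7% of all genes were higher), by 0.74 to 2.52, with arms that overlapped for each gene. H2-Q6 there read 8.81, 13.62, 9.87, 13.82 and 13.56 with therapy, against 9.66, 9.86, 8.01, 8.75 and 10.83 untreated. Treated tumours thus fell into 3 high and 2 within the untreated range. On the flow cells that held both arms, with 1 and 2 treated tumours, the KPB25L differences in H2-Q6 were 0.44 and 0.91, against 2.52 in the pooled value. In KPB25L at 3 days the summed epithelial markers were 13.96 to 16.51 with therapy and 16.25 to 16.49 untreated, and those of adipocytes 5.55 to 14.77 with therapy and 4.02 to 8.99 untreated. Those of leucocytes were 14.11 to 15.13 with therapy and 13.99 to 14.68 untreated, and 2 of 11 leucocyte markers were called higher, with a median difference of 1.29. The part of these cells was not tested. KPB25L-UV had 1 of 8 genes higher in value at 3 days and 0 called (0% of all genes called, 1986 at unadjusted p under 0.05, limma), with differences of -0.86 to 0.22 and a median of -0.61. Its untreated sample with T11 transcripts was the highest of that arm for each gene, and H2-Q6 averaged 10.77 with therapy, against 11.62 untreated with that sample and 11.15 without it. T11-UV at 3 days, with 3 treated and 4 untreated tumours on 1 shared flow cell, had 1 member called (6.65% of all genes were higher). This was H2-T23, by 1.81 ± 0.48 (SE, adjusted p = 0.0084, limma).

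At end stage 0 members were called in the sensitive models (0.0288% of all genes, 1354 at unadjusted p under 0.05) and 0 in the resistant models (0%, 1241 at unadjusted p under 0.05, limma). The differences averaged over models were 0.11 to 0.73 in the sensitive and 0.29 to 1.31 in the resistant models. The sensitive models did not move alike in value. In KPB25L each of the 8 genes was lower with therapy, with differences of -0.39 to -0.12, and in KPB25L-UV 6 of 8 were higher, while each was higher in T11-UV and T11-Apobec. At end stage the arms of T11-UV, T11-Apobec and KPB25L-UV shared no flow cell, whereas most KPB25L tumours of both arms shared a flow cell. Whether these models differ apart from flow cell was not tested. In the resistant models at 3 days 0 were called (0%, 461 at unadjusted p under 0.05, limma), with differences of 0.49 to 1.01, and 5 were called higher with flow cell as a term. The number of all genes called in that fit is not given, so those 5 are not read as particular to the members. Single models with calls at end stage were p53-2336R, where H2-Q7 averaged 12.37 with therapy and 10.18 untreated (2.2 ± 0.5, SE, adjusted p = 0.00699, limma) and H2-Q6 differed by 1.92, and T11-UV, where H2-Q4 differed by 1.87 ± 0.47 (SE, adjusted p = 0.029, limma). The T11-UV arms were on different flow cells. In p53-2336R the H2-Q7 difference was 2.05 on the flow cell with 4 tumours per arm and 0.36 on the one with 1 per arm. The shares of all genes called higher were 0.887% in p53-2336R and 0.0719% in T11-UV. In the sensitive models the therapy effect at 7 days minus that at 3 days was 0.12 to 0.76 over the 8 genes, and 0 were called (0.532% of all genes, 0.504% higher, 2232 at unadjusted p under 0.05, limma).

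**Figure D2:**
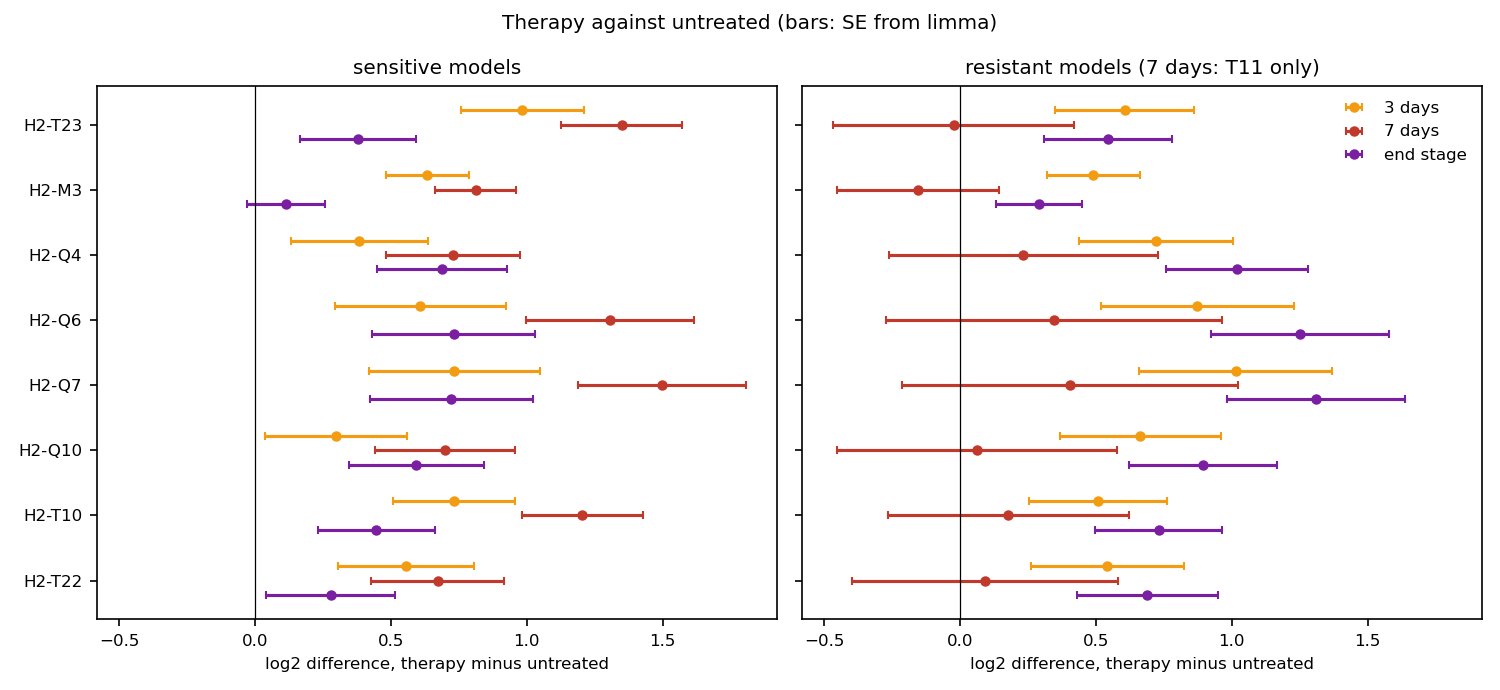
Difference between therapy and untreated tumours (log2, mean of models with equal weight, bars are SE) for each gene at 3 days, 7 days and end stage, in sensitive and resistant models; at 7 days the resistant models are T11 alone. At 7 days the sensitive models lie between 0.67 and 1.5 and T11 between -0.15 and 0.4.

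Other genes of the pathway moved in the same 7-day comparison of the sensitive models. Of all genes, 15.5% were higher, 21.2% lower and 36.7% called in all there. The classical heavy chains H2-D1 (1.38) and H2-K1 (1.23) and their light chain B2m (0.81) were higher, 3 of the 3 classical genes tested. Of 12 genes of peptide loading 8 were higher, among them Tapbp (tapasin, 0.95), Tap2 (peptide transport, 1.34) and Tapbpl (0.87). Of 8 genes of the interferon gamma pathway 5 were higher, among them Ifng (3.15), Socs1 (1.69) and Irf1 (1.13). Of 8 genes of receptors that read class Ib molecules 7 were higher, among them Klrd1 (CD94, 2.02), Klrc1 (NKG2A, 1.9) and the gamma delta T cell receptor gene Tcrg-C2 (2.93). Of 13 other class Ib genes 6 were higher and 1 lower, H2-M2 rising by 2.87 and H2-T3 by 1.84. The summed level of leucocyte markers ran from 13.49 to 15.88 with a median of 15.14 with therapy, and from 13.44 to 15.25 with a median of 14.53 untreated, and its part in the result was not tested. Markers of hepatocytes, which make H2-Q10, showed 0 of 3 called.

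Untreated tumours of the derivatives also differed from those of their parent, T11. At 7 days each of the 8 genes was higher in T11-UV than in T11, by 1.32 to 2.81 with a median of 2.42, while 9.38% of all genes were higher and 20.4% were called in either direction. Each of the 8 was also higher in T11-Apobec than in T11, by 0.94 to 2.76 with a median of 2.35, while 1.46% of all genes were higher, 2.84% lower and 4.3% called in all. Both comparisons share the T11 samples.

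H2-T10 read 11.38, 9.81, 10.77 and 9.42 in T11-UV and 10.31, 10.27, 10.2 and 10.25 in T11-Apobec, against 7.97, 7.6, 7.63 and 7.66 in T11. The difference was 2.63 ± 0.44 for T11-UV and 2.54 ± 0.44 for T11-Apobec (SE, 4 mice each, adjusted p = 9.02e-06 and 1.52e-05, limma). H2-Q7 read 12.81, 11.61, 12.02 and 11.08 in T11-UV and 11.99, 11.91, 11.71 and 11.74 in T11-Apobec, against 9.08, 8.7, 9.34 and 9.18 in T11. The lowest derivative lay above the highest T11 tumour for each of the 8 genes, but how many of all genes did so was not counted. H2-T23 differed by 2.24 ± 0.44 in T11-UV and 2.19 ± 0.44 in T11-Apobec, and H2-M3 least, by 1.32 and 0.94 (adjusted p = 0.000873 and 0.0466, limma). For T11-Apobec, leaving out any 1 of the 8 mice gave 7 members called, and for T11-UV it gave 8.

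At 3 days the difference was smaller in T11-UV, with 0 members called (0.264% of all genes, 1191 at unadjusted p under 0.05, limma) and a median of 0.62. T11-Apobec had 3 called higher at 3 days (3.97% of all genes), H2-T23 by 1.74, H2-T10 by 1.7 and H2-Q4 by 1.64. At end stage neither had a call, with medians of 0.4 for T11-UV (0.926% of all genes called, 2556 at unadjusted p under 0.05) and 0.92 for T11-Apobec (1.24%, 2503, limma). At 7 days T11-Apobec and T11 shared 1 flow cell. T11-UV and T11 were on different ones, so line and flow cell cannot be told apart for T11-UV. At 3 days and at end stage neither derivative shared a flow cell with untreated T11, and flow cell as a term was not fitted there. At 3 days leucocyte markers were called higher in 0 of 11 for T11-UV (0.048% of all genes were) and in 6 of 11 for T11-Apobec (3.97%). At end stage 0 of 11 were called for either derivative. The part of leucocytes was not tested at any time. At 7 days Psmb9 (immunoproteasome, 3.37), Psmb8 (2.78) and H2-D1 (2.57) were higher in T11-UV, and Tap1 (3.03) and Psmb9 (3.06) in T11-Apobec.

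**Figure D3:**
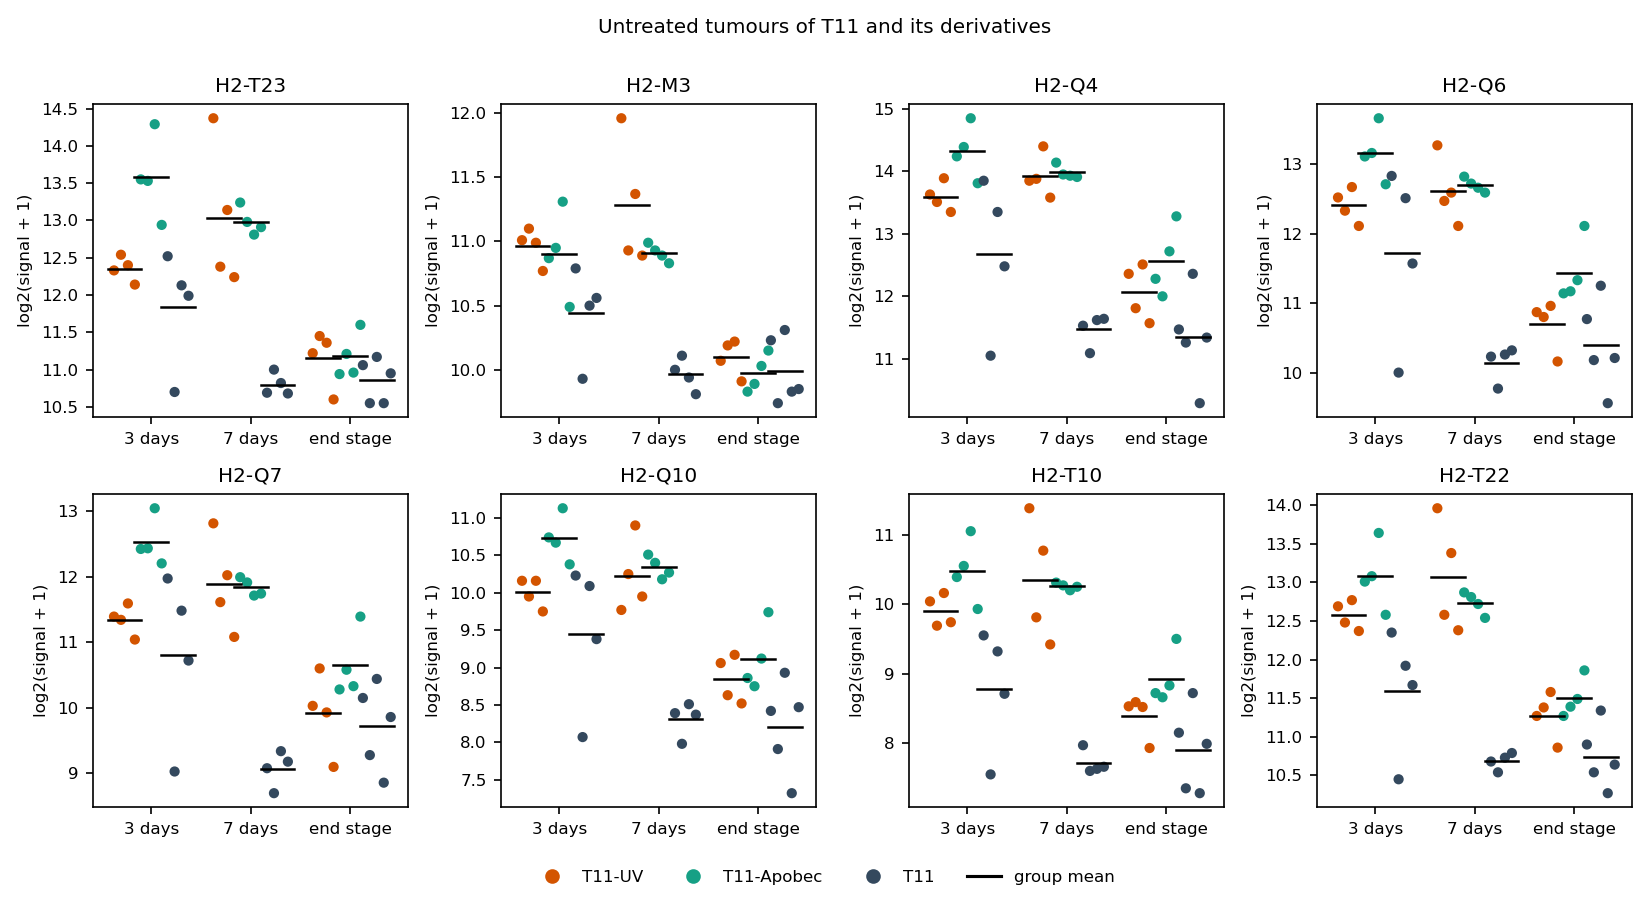
Signal of each gene as log2(signal + 1) in untreated T11-UV, T11-Apobec and T11 tumours at 3 days, 7 days and end stage, 1 point per mouse with means as bars. At 7 days no point of either derivative reaches the T11 points, as for H2-T10 with 9.42 to 11.38 in T11-UV, 10.2 to 10.31 in T11-Apobec and 7.6 to 7.97 in T11.

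The strains were compared first without a tumour. The build named for the data, mm10, is of C57BL/6J, so that strain differences in RNA level and in how well an allele matches that sequence cannot be told apart here or in the tumours below. In normal glands H2-T22 read 14.07, 13.24, 13.4, 12.69 and 12.59 in BALB/c, against 10.51, 10.63, 10.01 and 10.26 in FVB. The difference was 2.85 ± 0.5 (SE, adjusted p = 8.14e-05, limma). H2-T23 read 14.86, 13.64, 13.67, 13.17 and 13.05 in BALB/c, against 11.72, 12.06, 10.84 and 11.45 in FVB, a difference of 2.16 ± 0.45 (SE, adjusted p = 0.00168, limma). The glands of both strains did not overlap for either gene. These were the 2 of 8 members called, both higher, where 1.07% of all genes were called higher and 2.09% in either direction.

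H2-T10 went the other way in value, with 11.51, 10.75, 10.98, 9.99 and 9.83 in BALB/c glands, against 12.18, 12.28, 11.56 and 11.66 in FVB glands. The strains did not overlap, but the difference of -1.31 ± 0.48 missed the threshold (SE, adjusted p = 0.171, limma). H2-Q6 differed by 1.82 (adjusted p = 0.251, limma) and was called when the glands were fitted alone (adjusted p = 0.0464, limma). The other 4 genes differed by 0.21 to 1.23 and were not called. The median over all genes was 0.12. Among other class Ib genes, H2-Q5 (3.52) and H2-Q2 (2.31) were higher and H2-M9 was lower (-3.52) in BALB/c glands, while 0 of the 3 classical genes were called and leucocyte markers showed 0 of 11.

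In tumours the same directions were called for H2-T22 and H2-T23. Across 8 BALB/c and 3 FVB models untreated at 3 days (31 and 14 samples), H2-T22 averaged 11.77 in BALB/c models and 8.95 in FVB models (2.82 ± 0.22, SE, adjusted p = 1.60e-23, limma). H2-T23 averaged 12.73 in BALB/c models and 10.77 in FVB models (1.96 ± 0.2, SE, adjusted p = 3.66e-16, limma). H2-T10 averaged 8.89 in BALB/c models and 11.2 in FVB models (-2.31 ± 0.2, SE, adjusted p = 1.50e-20, limma). Without the sample with T11 transcripts H2-T22 differed by 3.03 and H2-T10 by -2.24. These p-values measure the spread between samples and not between models. H2-Q7 (-0.88) and H2-M3 (-0.58) were lower and H2-Q10 (0.55) was higher, whereas H2-Q4 (-0.45) and H2-Q6 (0.27) were not called. Thus 3 members were higher and 3 lower, with 23.8% of all genes higher and 36.6% lower, or 60.5% in all, so that a call by itself is common in this comparison. Tumour strain and tumour line cannot be told apart here. In the BALB/c models 10 of 11 leucocyte markers, 8 of 8 class Ib receptor genes and the 3 classical genes were lower, H2-D1 by 1.31. Markers of other cells differed too, with Epcam (-3.18) and Krt8 (-3.46) lower and Krt5 (3.52) higher among epithelial markers, both endothelial markers lower (Cdh5 by 0.95) and 2 of 3 hepatocyte markers lower (Alb by 3.32). The part of these cells was not tested.

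By model at 3 days, H2-T22 was 11.98 ± 0.34 in p53-2153F, 11.6 ± 0.82 in T11 and 10.63 ± 0.09 in p53-2336R, the lowest of the BALB/c models (SD). It was 8.88 ± 0.73 in KPB25L-Apobec, the highest of the FVB models, 8.84 ± 0.19 in KPB25L-UV without samples holding T11 transcripts and 8.49 ± 0.44 in KPB25L (SD). The step from p53-2336R to KPB25L-Apobec was 1.75, without overlap of their samples, and the FVB models did not differ beyond their spread. H2-T23 was highest in p53-2153F (13.68 ± 0.22) and lowest among models of known strain in KPB25L (10.17 ± 0.55, SD), and neighbouring models in that order overlapped throughout. H2-M3 had another order, with 10.97 ± 0.14 in T11-UV at the top and 7.42 ± 0.08 in p53-2336R and 7.08 ± 0.2 in p53-2225L at the bottom (SD), all 3 of them BALB/c. H2-Q4 and H2-Q6 were highest in T11-Apobec, at 14.32 ± 0.43 and 13.16 ± 0.39 (SD), and H2-Q7 was lowest in p53-2225L at 7.56 ± 0.72 (SD). T11 against KPB25L alone, at 3 days with 4 and 5 samples, called 4 members higher and 1 lower (12.2% of all genes higher, 20.4% lower, 32.5% in all). H2-T22 differed by 3.11 ± 0.47 and H2-T10 by -2.04 (SE for H2-T22, adjusted p = 1.35e-08 and 3.34e-05, limma), and with flow cell as a term 1 member was called, lower.

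**Figure D4:**
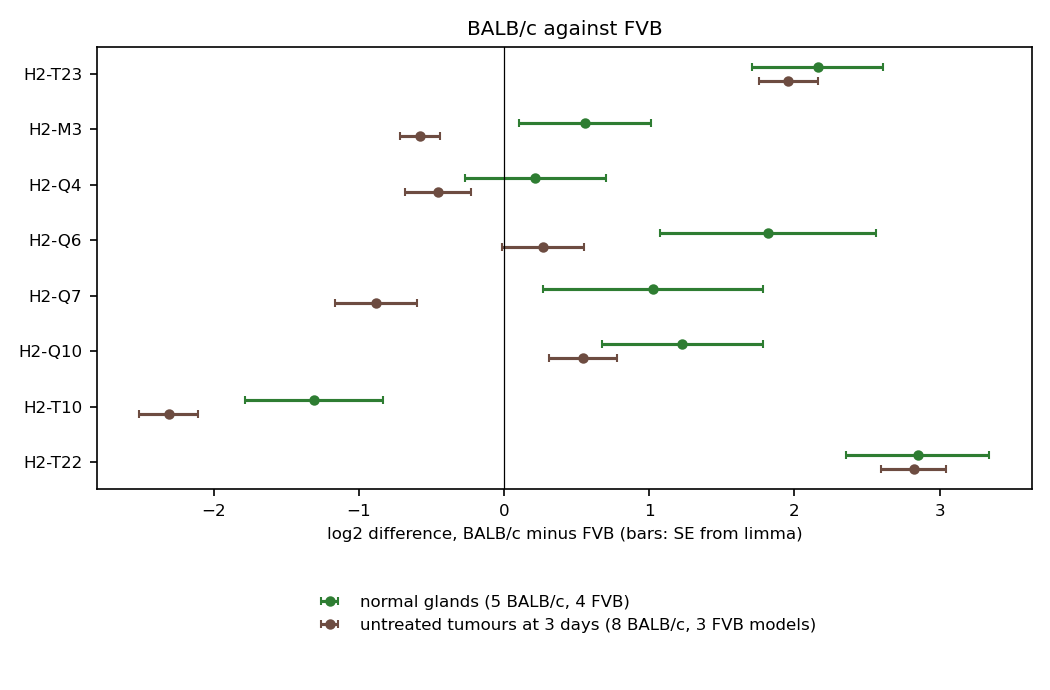
Difference between BALB/c and FVB (log2, bars are SE) of each gene in normal glands and in untreated 3-day tumours. H2-T22 and H2-T23 are higher in BALB/c in both (2.85 and 2.82, 2.16 and 1.96), and H2-T10 lies at -1.31 in glands, where it was not called, and -2.31 in tumours.

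The difference between H2-T22 and H2-T10 within a library removes what moves both genes alike. It was chosen after the values were seen and is given without a test. It ran from 2.17 to 6.6 in 126 BALB/c tumours (median 2.65) and from 2.42 to 2.76 in 5 BALB/c glands. In FVB it ran from -3.68 to -1.73 in 53 tumours without T11 transcripts (median -2.38) and from -1.67 to -1.4 in 4 glands. The 6 KPB25L-UV samples with T11 transcripts lay between, from -0.71 to 1.59. Tumours of both arms and of each time are included in these ranges.

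Models without a stated strain fell on either side of 0. T12 and 8 p53 models with 1 end-stage tumour each lay between 2.46 and 2.95. KPB-Primary, with 24 tumours, ran from -2.16 to -1.37, KPB-1A from -2.45 to -1.41, KPB-1B from -1.96 to -1.59 and PyMT from -2.09 to -1.9. The 11 C3-TAG tumours ran from -1.6 to 1.26 with a median of -1.18. The C3-TAG tumours with H2-T22 at 11.74 and 12.4 had H2-T10 at 10.64 and 11.15, whereas the other 9 had more H2-T10 than H2-T22. The 10 ILC-Pik3Ca/Cdh1Null tumours ran from -1.86 to 1.69 with a median of 1.49, and replicate 3 alone was below 0. H2-T10 was 12.24 and H2-T22 10.38 in that tumour, while the other 9 had H2-T10 of 9.95 to 10.99 and H2-T22 of 11.51 to 12.46. Their strain is not inferred from these values.

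The same contrast stood in cultured lines, which have 1 library each, no replicate and a table normalized separately. H2-T22 minus H2-T10 was 4.55, 3.15 and 4.34 in the T11 lines and -2.13, -2.11 and -1.99 in the KPB25L lines. H2-Q6 minus H2-Q7 was 1.05, 1.41 and 1.16 in the T11 lines and -2.22, -2.22 and -1.8 in the KPB25L lines. In tumours this second difference ran from -0.61 to 1.54 in BALB/c and from -1.02 to 0.14 in FVB without T11 transcripts, so that the strains overlapped. Nlrc5, the class I transactivator, was 9.37, 7.7 and 8.23 in the T11 lines and 1.72, 0.85 and 0 in the KPB25L lines. The leucocyte gene Ptprc was 0.46 to 2.07 in these cultures.

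**Figure D5:**
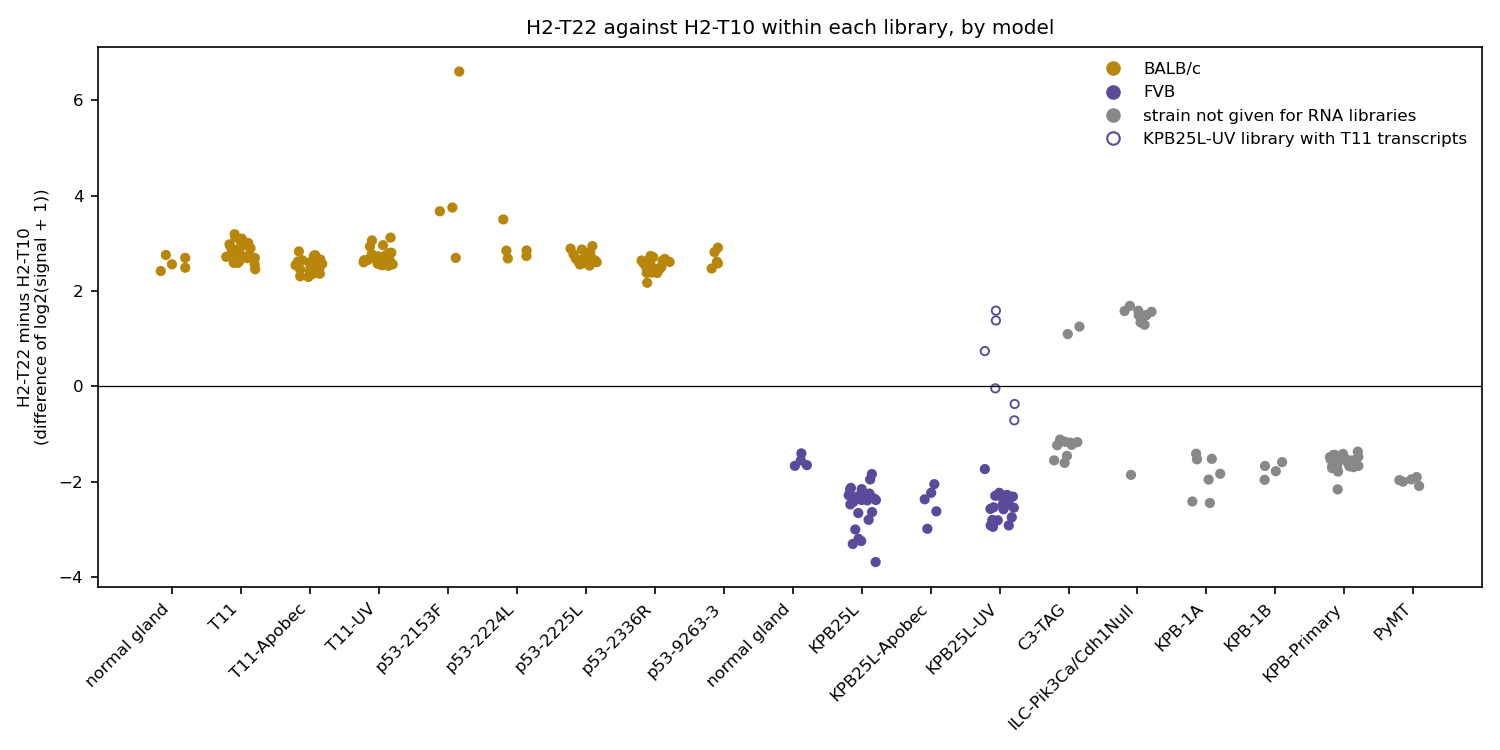
Difference between H2-T22 and H2-T10 within each library (log2), by model and coloured by strain, with glands and tumours and with open points for KPB25L-UV samples holding T11 transcripts. BALB/c libraries lie at 2.17 or above and FVB libraries without T11 transcripts at -1.4 or below, while C3-TAG and ILC-Pik3Ca/Cdh1Null tumours lie on both sides of 0.

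Levels of different genes were compared per kilobase of mean coding transcript (log2 of signal per kb). In untreated T11 tumours at 7 days H2-Q4 was highest at 10.63 ± 0.26, followed by H2-T23 at 10.24 ± 0.15 and H2-T22 at 9.95 ± 0.11, and H2-T10 was lowest at 7.05 ± 0.17 (SD, 4 mice). In untreated KPB25L at 3 days H2-Q4 was again highest at 10.93 ± 0.45, H2-T10 was second at 10.15 ± 0.41, and H2-T22 at 7.76 ± 0.44 lay above H2-Q10 alone at 6.64 ± 0.39 (SD, 5 samples).

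Averaged over models, untreated tumours had less RNA of these genes at end stage than at 3 days. Over 7 models with both times (38 samples at end stage, 28 at 3 days), 7 of 8 genes were lower at end stage, where 4.29% of all genes were lower, 1.06% higher and 5.35% called in all. H2-Q6 was lower by 1.01 ± 0.22 and H2-T23 by 0.83 ± 0.16, with H2-T23 averaging 11.13 at end stage and 11.96 at 3 days (SE, adjusted p = 0.0015 and 0.000271, limma). H2-T22 was lower by 0.55 (adjusted p = 0.0456, limma), and H2-M3, at -0.28, was not called (adjusted p = 0.115, limma). The models did not move as one, since each of the 8 genes was lower in value at end stage in 5 models and higher in 2. In T11-Apobec 3 members were lower (1.89% of all genes were), H2-T23 averaging 11.18 at end stage and 13.58 at 3 days. In KPB25L-UV 6 were lower (13.2% of all genes), H2-Q6 averaging 8.69 at end stage and 11.62 at 3 days, or 8.48 at end stage and 11.15 at 3 days without the 1 sample of each time that held T11 transcripts. In p53-2336R each of the 8 was higher at end stage in value, by 0.33 to 1.73, with 0 called (4.01% of all genes called, 3141 at unadjusted p under 0.05, limma). In p53-2225L each was also higher at end stage in value, by 0.06 to 0.38, with 0 called (0%, 467 at unadjusted p under 0.05, limma). Leucocyte markers were lower in 7 of 11, the 3 classical genes in 3 of 3 and receptors of class Ib molecules in 6 of 8, and their part was not tested. Flow cell and time could not be separated in this comparison.

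Over the means of the 47 tumour groups, members of the Q region followed each other, with a Pearson r of 0.926 between H2-Q6 and H2-Q7, 0.906 between H2-Q4 and H2-Q10 and 0.764 between H2-Q7 and H2-Q10. H2-T23 followed H2-T22 (r = 0.913) but not H2-T10 (r = 0.049), and H2-T10 and H2-T22 had r = -0.133. The groups share lines, hosts and flow cells, so these values are descriptions. The genes outside the list most like H2-Q4 were Nlrc5 (0.934), B2m (0.912) and Psmb8 (0.906), and those most like H2-M3 were Tor3a (0.965), Parp12 (0.958) and Lat2 (0.949). H2-Q6 was most like Gbp2b (0.907), H2-Q7 like Igtp (0.909) and H2-Q10 like H2-Q1 (0.96). H2-T22 was most like H2-Q5 (0.937) and H2-Q2 (0.91), H2-T23 like Scly (0.866) and Insrr (0.849), and H2-T10 like Tmbim4 (0.889) and Ly6a (0.875).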

How the data were processed

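RNA of tumours and glands was sequenced as poly(A)-selected libraries with paired reads of 50 bases, per the labels' protocols. The tools named in the submitters' processing notes were Salmon, STAR, Picard and SAMtools, with the build mm10, while their order, versions and annotation were not given in the sources used. Each deposited value is the signal of 1 gene, scaled by the authors to a common upper quartile, per the file headers, and it was 2048.974 in each tumour or gland library and 1000 in cultured lines. They are not counts, so no count test was run. Entries named as dates (39) or with repeated symbols (28) were left out, and 45657 were kept. Signal was tested as log2(signal + 1), over the upper 66.7% of genes by mean among those above 0 in at least 4 samples. The tumour fit held 192 samples in 47 groups of model, time and arm, which shared 1 spread (limma 3.58.1, R 4.3.3). Glands were fitted with end-stage tumours of 4 models (KPB-Primary, C3-TAG, PyMT and ILC-Pik3Ca/Cdh1Null) in 59 libraries. Models had equal weight in averaged comparisons. P-values measure spread between samples, each taken as a separate mouse. The labels give mouse numbers for only part of the samples, so a repeated mouse among the rest would not be seen. Of the numbers given, 4 appear both in T11-UV at 7 days and in KPB25L-UV at end stage. Transcript and coding sequence comparisons used Biopython 1.88. Each of the 8 members was named in each comparison, other lists by counts with up to 3 of their called genes of smallest adjusted p, and for likeness up to 3 genes by Pearson correlation. A gene that this rule names is not reported here. Members, lists and tests were chosen with earlier results of these data known. The fitting steps were tested on simulated data. Alternatives were 2 other pseudocounts, no filter on low signal, another scaling, spread from the compared groups alone, flow cell as a term, the samples with T11 transcripts left out, 1 library in place of 2 for 1 mouse, near-identical members summed, glands fitted alone and each sample left out in turn.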

Additional observations from a re-analysis of the deposited data

Results flagged for a closer look

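In groups of 4 to 10 samples, the highest or lowest value of a gene was set against the range of its group with Dixon's criterion at 95%. Of 336 such tests, 25 were past the limit, or 7.44%, in 12 groups. Chance gives about 1 in 20, and the genes of 1 sample are not independent. Values are log2(signal + 1).

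The treated p53-2336R tumour at 3 days, replicate 4, stood above its group for 6 genes, at 13.65 for H2-T23, 13.20 for H2-Q4, 12.80 for H2-Q6, 12.32 for H2-Q7, 10.14 for H2-T10 and 12.85 for H2-T22. The other 4 of its group had H2-Q6 of 9.42 to 10.38. At end stage, treated p53-2336R replicate 2 stood below its group at 11.67 for H2-Q4, 11.39 for H2-Q6 and 10.92 for H2-Q7, while its H2-T23 of 13.5 was the highest of its group.

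In the ILC-Pik3Ca/Cdh1Null tumours, replicate 3 was low for H2-T23 (12.23) and H2-T22 (10.38) and high for H2-T10 (12.24). Untreated KPB25L-UV at 3 days, replicate 3, which held T11 transcripts, was high for H2-T22 at 11.36, against 8.67 to 9.04 in the other 3. BALB/c gland replicate 1 was high for H2-Q4 (14.05) and H2-Q6 (14.07).

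Treated T11-UV at 7 days, replicate 3, was low for H2-Q6 (13.63) and H2-Q10 (10.45). Untreated T11 at 7 days had H2-Q6 of 9.77 in replicate 2 and H2-T10 of 7.97 in replicate 1. Untreated T11-UV at end stage, replicate 4, was low for H2-T10 at 7.93. Untreated p53-2153F at 3 days, replicate 4, was high for H2-Q10 at 9.72. Untreated KPB25L at end stage was low for H2-T23 in replicate 4 (9.61) and high for H2-T22 in replicate 2 (9.20). KPB25L-Apobec at 3 days, replicate 5, was low for H2-Q6 at 9.85, and KPB-1B at end stage, replicate 4, was low for H2-Q7 at 7.85.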

How the results depend on the processing

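Of the alternative counts of members called, 143 stayed within 1.5 times the value reported, 5 were higher and 9 lower. The number of all genes called in each alternative is not given beside these counts. Direction was followed for single members only, for therapy in the sensitive models at 7 days and for both strain comparisons. Of these alternatives 174 kept the call, 1 gained it and 5 lost it, and no sign changed. With flow cell as a term the counts were 5 for therapy in the sensitive models at 7 days, 0 at 3 days, 5 in the resistant models at 3 days, 0 in T11-UV and 3 in KPB25L-UV at 7 days, and 1 for T11 against KPB25L. Without the KPB25L-UV samples with T11 transcripts 5 were called in the sensitive models at 3 days and 5 in KPB25L-UV at 7 days. With near-identical members summed 0 were called in KPB25L-UV, 3 for T11 against KPB25L and 1 in glands, where fewer entries were tested. With the spread taken from the compared groups alone 0 were called in the sensitive models at 3 days, 8 in T11-Apobec and 0 in KPB25L-UV at 7 days. Leaving out 1 sample gave 6 to 8 in the sensitive models at 7 days, 2 to 6 at 3 days (6 without KPB25L therapy replicate 1, 5 without T11-UV therapy replicate 2), 2 to 5 in T11-Apobec at 7 days (2 without therapy replicate 1), 2 to 4 in T11-UV, 0 to 3 in KPB25L-UV (0 without therapy replicate 2, 3 without therapy replicate 3, 2 without untreated replicate 3), 5 to 7 for end stage against 3 days and 5 to 6 for BALB/c against FVB models. The causes were not tested. No paired analysis was possible because replicate numbers mark samples within a group only. Flow cell could not be fitted for BALB/c against FVB models, T11-UV against T11 and end stage against 3 days. Depth is unknown, so no limit on low values could be set.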

Other observations

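Class Ib genes outside the 8 differed between the strains in both directions. In untreated 3-day tumours H2-Q5 averaged 8.48 in BALB/c models and 6.6 in FVB models, and H2-Q2 averaged 8.49 in BALB/c models and 5.87 in FVB models (adjusted p = 1.84e-08 and 2.77e-11, limma). H2-M9 averaged 4.11 in BALB/c models and 6.58 in FVB models (adjusted p = 2.30e-07, limma). These are the directions called in glands. H2-T3, the gene of the thymus leukaemia antigen, averaged 1.18 in BALB/c models and 3.26 in FVB models (adjusted p = 2.94e-09, limma), and in glands its difference of -2.13 was not called (adjusted p = 0.217, limma). Tumour strain and tumour line cannot be told apart here either.

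The 3-day p53-2153F tumour with H2-T10 of 4.94 had H2-T22 of 11.55, the widest gap of any BALB/c tumour, whereas the other 3 tumours of that group had H2-T10 of 8.22 to 9.61. This tumour was singled out after its values were seen.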
